A study of Trichosurus vulpecula with 6 samples.

Results

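The 10 genes described here encode proteins that build lysosome-related organelles, and their transcripts were measured in skin punched from the ears of common brushtail possums (Trichosurus vulpecula), a marsupial with black and grey coat morphs. The genes were listed by name and not by any measured value, though with earlier results of these data known. They are HPS1 and HPS4, HPS3, HPS5 and HPS6, AP3B1 and AP3D1, BLOC1S6 and DTNBP1, and LYST, 10 of 18118 RefSeq genes to which at least 1 assembled transcript was assigned. The libraries came from 3 black and 3 grey possums, all adult females from Dunedin, New Zealand, and were poly(A)-enriched and strand-specific. The labels give coat colour, sex and stage and no other trait. StringTie assembled the transcripts of each library separately, and the level of a gene was the sum of the TPM of its assembled transcripts. TPM, the transcript abundance that StringTie gives, is scaled to transcript length and to library size.

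Lysosome-related organelles are compartments such as the melanosome of pigment cells, the dense granule of platelets and the lytic granule of cytotoxic lymphocytes, which share parts of the machinery that makes lysosomes. Cargo such as tyrosinase leaves early endosomes by routes that need the adaptor complex AP-3 and the complexes BLOC-1, BLOC-2 and BLOC-3. In humans and mice, loss of subunits of these complexes gives Hermansky-Pudlak syndrome and its mouse models, with pale coat or skin and a bleeding tendency, and loss of LYST gives Chediak-Higashi syndrome and the beige mouse. Unlike the enzymes of melanin synthesis, these genes are used by many cell types. In bulk skin, fewer cells of a type and less RNA per cell cannot be told apart.

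Sequencing depth, taken as aligned bases, was 6.47 to 8.51 gigabases in the black and 4.17 to 10.2 gigabases in the grey libraries. The summed TPM of 7 of 7 skeletal muscle markers was 3113 in black replicate 1, against 5.23 and 8.01 in the other black libraries and 4.74 to 6.28 in the grey libraries, and CKM, the muscle creatine kinase, was listed at 0 in the other 5. Of the keratinocyte markers only TP63 had an entry under its symbol, at 39.7 to 43.9 TPM in black and 36.6 to 48.7 TPM in grey skin. The summed TPM of 5 of 5 fibroblast markers was 2304 to 2713 in black and 962 to 3609 in grey skin, lowest in grey replicate 3. Melanocyte-restricted genes summed to 113 to 277 TPM in black and 86.3 to 285 TPM in grey skin, highest in black replicate 3 and grey replicate 2. Nothing in the labels says that replicate numbers pair the animals, and p-values rest on the spread between the libraries of these 6 possums.

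All 10 genes passed the filter of a mean of at least 1 TPM, and 9 of them were assembled in every library. Mean levels over the 6 libraries ran from 33.9 TPM for DTNBP1 through 31.9 for AP3B1, 30.5 for AP3D1, 18.6 for HPS1, 18.1 for LYST, 13.8 for BLOC1S6, 11.1 for HPS5, 9.46 for HPS4 and 9.19 for HPS3 down to 1.57 for HPS6. Of the 9 neighbouring pairs in this order, 8 had overlapping ranges over libraries. In summed TPM only HPS6 stood apart, with at most 3.18 TPM against at least 7.83 TPM for HPS3. The depth behind these values, as reads of 120 nt, ranged from 305 reads for BLOC1S6 in grey replicate 2 to 7988 reads for LYST in the same library, leaving HPS6 aside. Intervals below cover the spread between libraries, which in summed TPM includes differences in how each library was assembled. They do not cover errors of assembly that all libraries share.

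No gene of the 10 differed between black and grey skin at an adjusted p of 0.05 (limma on log2(TPM + 1), Benjamini-Hochberg over 15582 genes), against 0.0193% of all genes tested (3 genes, of which 2 were higher in black, 0.0128%, and 1 lower, 0.00642%). At an unadjusted limma p under 0.05 the count was also 0 of 10, against 2.32% of all genes tested. The adjusted p of each of the 10 was 1.00. Of the log2 differences, black minus grey, 8 were above 0 and 2 below, with a median of 0.12 over the 10 genes, against 0.04 over all genes tested. The groups did not overlap for 1 of the 10, HPS1, against 6.37% of all genes tested. 

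**Figure D1:**
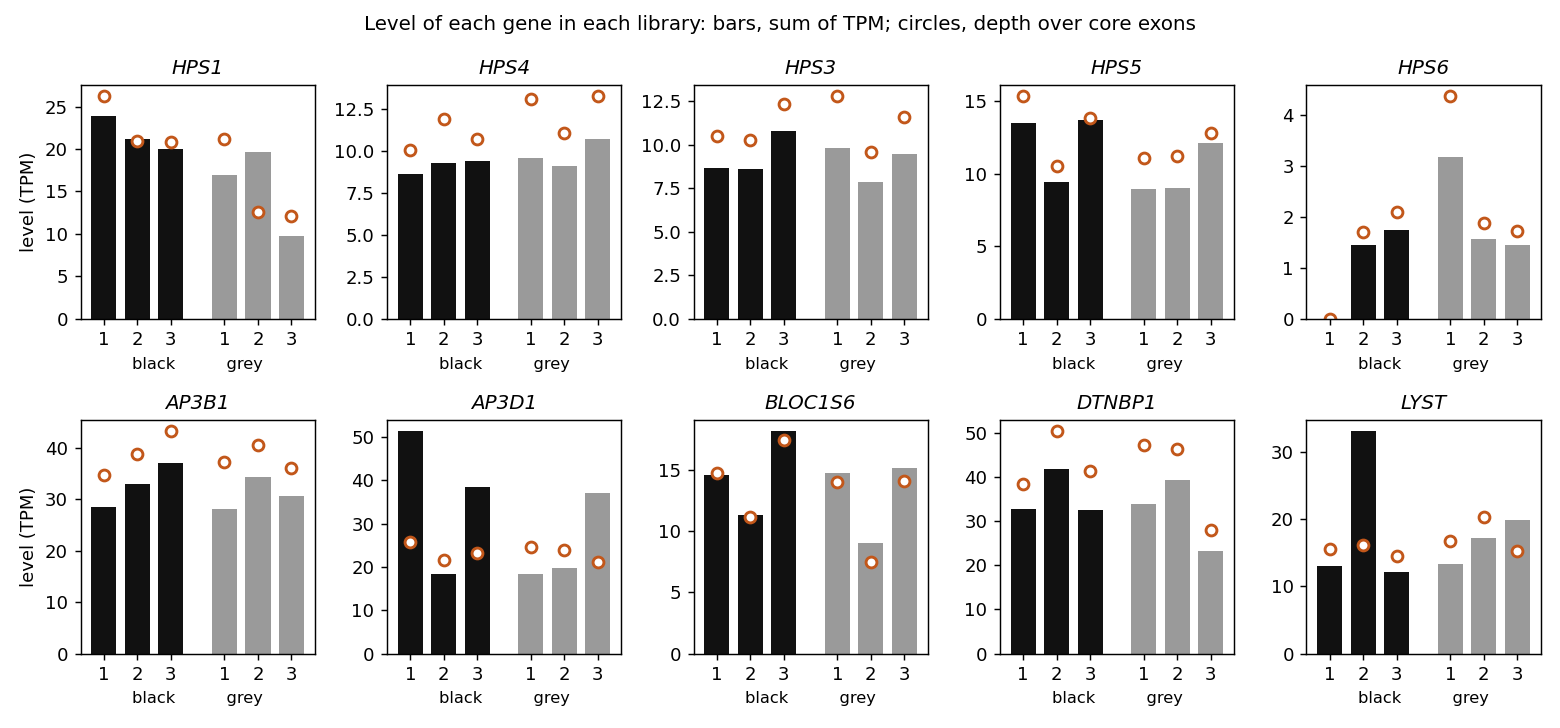
Level (TPM, y axis, linear from 0) of each of the 10 genes in the 3 black (left, dark bars) and 3 grey (right, light bars) libraries. Bars are the summed TPM of all transcripts and open circles the mean depth over exon bases assembled in every library, scaled as TPM is. The circles of AP3D1 lie between 21.2 and 25.8 where its bars lie between 18.3 and 51.4.

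The TPM of a gene is summed over assembled pieces, each scaled to its own length, so a gene assembled in separate pieces adds up the levels of all of them. For this reason each gene was also measured as the mean depth over core exons, the exon bases assembled in every library that had a transcript of the gene, scaled as TPM is. This measure was chosen after the data had been seen. The core exons held 1282 nt for BLOC1S6, the fewest, and 13697 nt for LYST, the most. In the order of mean levels over core exons, 2 of 9 neighbouring pairs had ranges that did not overlap. HPS6 again stood below HPS3, and AP3D1, at 25.8 or less, stood below AP3B1, at 34.7 or more. On this measure 0 of 10 genes passed an adjusted p of 0.05, against 0.0271% of all genes tested, and the groups overlapped for all 10, against 5.51% of all genes for which they did not. The median log2 difference of the 10 was 0.03, against -0.03 over all genes. 

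HPS1 and HPS4 together form BLOC-3, the exchange factor that activates RAB32 and RAB38 on the way to the melanosome. HPS1 (chromosome 8, 76691712 to 76729469, plus strand, mTriVul1.pri) had 23.9, 21.1 and 20.0 TPM in black skin, against 17.0, 19.6 and 9.81 TPM in grey skin. Every black library was above every grey one, but narrowly, with 20.0 TPM in black replicate 3 against 19.6 TPM in grey replicate 2. Of all TPM, 88.7% was assigned to genes in black replicate 3 and 87.0% in grey replicate 2, and summed TPM was not scaled to this share. Grey replicate 3 was lowest by far. The log2 difference was 0.51 (SE 0.27, 95% interval -0.12 to 1.14, limma), which did not pass the test. Without grey replicate 3 it was 0.23, and without black replicate 1, the library with muscle transcripts, it was 0.44.

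In grey replicate 2 no HPS1 transcript covered 80% of the gene, and its longest-spanning piece reached 55.9%. Over core exons HPS1 stood at 26.2, 20.9 and 20.8 in black skin, against 21.2, 12.6 and 12.1 in grey skin, so grey replicate 1 lay within the black range and the other 2 grey libraries lay below it. The log2 difference on this measure was 0.57 (SE 0.24, 95% interval -0.0049 to 1.15). Of the 10 intervals, that of HPS1 came nearest to leaving out 0 on both measures. The fibroblast markers were lowest in grey replicate 3, at 962 TPM, and their part in the HPS1 level of that library was not tested.

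HPS4 (chromosome 1, 19235564 to 19267170, plus strand) varied least of the 10 in summed TPM. It had 8.64, 9.27 and 9.41 TPM in black skin, against 9.61, 9.11 and 10.7 TPM in grey skin. The groups overlapped, and the log2 difference was -0.09 (95% interval -0.49 to 0.30). Over core exons HPS4 stood at 10.1, 11.9 and 10.7 in black skin, against 13.1, 11.1 and 13.3 in grey skin, a log2 difference of -0.18 (95% interval -0.56 to 0.20). The ratio of HPS1 to HPS4 on that measure was 2.61, 1.76 and 1.94 in black skin, against 1.62, 1.13 and 0.913 in grey skin. These ratios did not overlap, whereas those of summed TPM did, at 2.77, 2.28 and 2.13 in black and 1.77, 2.16 and 0.916 in grey skin. Ratios were also taken, on both measures, for a pair of genes from each of BLOC-2, AP-3 and BLOC-1. All of those overlapped between colours, and no share over other gene pairs was taken. No test was made of the ratio, and an exact permutation of 3 against 3 libraries cannot give a two-sided p below 0.10.

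HPS3, HPS5 and HPS6 form BLOC-2, which directs tubules from endosomes towards the maturing melanosome. HPS3 (chromosome 4, 260738884 to 260784004, minus strand) had 8.64, 8.62 and 10.8 TPM in black skin, against 9.82, 7.83 and 9.44 TPM in grey skin. The 6 libraries were mixed in order, with a log2 difference of 0.04 (95% interval -0.40 to 0.49). 

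HPS5 (chromosome 6, 220636937 to 220685888, plus strand) had 13.5, 9.44 and 13.7 TPM in black skin, against 8.94, 8.98 and 12.1 TPM in grey skin. Both colours held at least 1 library near 9 TPM and at least 1 above 12 TPM. The log2 difference was 0.26 (95% interval -0.27 to 0.78), and over core exons 0.16 (95% interval -0.29 to 0.60). The ratio of HPS5 to HPS3 over core exons was 1.46, 1.03 and 1.12 in black skin, against 0.864, 1.17 and 1.11 in grey skin. 

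HPS6 is a single-exon gene in mammals and was the least abundant of the 10. No transcript was assigned to it in black replicate 1, where it is listed at 0, and it had 1.45 and 1.75 TPM in the other black libraries, against 3.18, 1.56 and 1.44 TPM in grey skin. The groups overlapped, and the interval of the log2 difference was wide (-0.65, 95% interval -1.82 to 0.51). It was -0.19 without black replicate 1, the library at 0, and -0.93 without black replicate 3. The RefSeq span (chromosome 8, 112530014 to 112533491, minus strand) is 3478 nt. Of the libraries, 3 held a single-exon transcript of 3645 to 4714 nt there. Grey replicate 3 held 1 single-exon transcript of 17400 nt and grey replicate 1 a 2-exon transcript, both reaching past the annotated 3′ end, to positions 112516031 and 112516018, into a stretch of 21705 nt between HPS6 and the next annotated gene, LDB1. The single-exon transcripts of the other 3 libraries also passed the annotated 3′ end, but only as far as 112528744, and rested on 198 to 230 reads each. All HPS6 values therefore rest partly on sequence outside the annotated span.

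AP3B1 and AP3D1 encode the large subunits of AP-3, the adaptor that sorts cargo such as tyrosinase from endosomes. AP3B1 (chromosome 1, 438245995 to 438597837, plus strand) had 28.6, 32.9 and 37.0 TPM in black skin, against 28.1, 34.3 and 30.7 TPM in grey skin. Its highest and lowest library differed by 1.32 times. The log2 difference was 0.08 (95% interval -0.32 to 0.48).

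AP3D1 (chromosome 1, 58423910 to 58578058, minus strand) fell into 2 levels that crossed coat colour. It had 51.4, 18.3 and 38.4 TPM in black skin, against 18.4, 19.8 and 37.0 TPM in grey skin, a log2 difference of 0.46 (95% interval -0.55 to 1.48). The 3 high libraries were those in which a segment at the 3′ end of the gene, between 58423910 and 58425452, was assembled as transcripts of its own. This segment held 28.5 TPM in black replicate 1, 16.5 in black replicate 3 and 18.3 in grey replicate 3, and it was not assembled in the others, whose transcripts ended at 58425557 to 58425597. The remaining transcripts, which hold the body of the gene, summed to 22.9, 18.3 and 21.9 TPM in black skin, against 18.4, 19.8 and 18.7 TPM in grey skin.

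Over core exons AP3D1 was the steadiest of the 10 genes, at 25.8, 21.7 and 23.2 in black skin, against 24.6, 23.8 and 21.2 in grey skin. The ratio of highest to lowest library was 1.22 there and 2.81 in summed TPM. The log2 difference over core exons was 0.02 (95% interval -0.32 to 0.36). The ratio of AP3D1 to AP3B1 over core exons was 0.743, 0.559 and 0.537 in black skin, against 0.660, 0.586 and 0.586 in grey skin. Within AP-3, then, the range of this ratio was narrower than in summed TPM, where it ran from 0.557 to 1.80 in black and from 0.577 to 1.21 in grey skin. The libraries with the segment had 7.58, 6.47 and 10.2 gigabases of aligned bases and those without it 8.51, 4.17 and 8.37, and the part of depth was not tested.

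**Figure D2:**
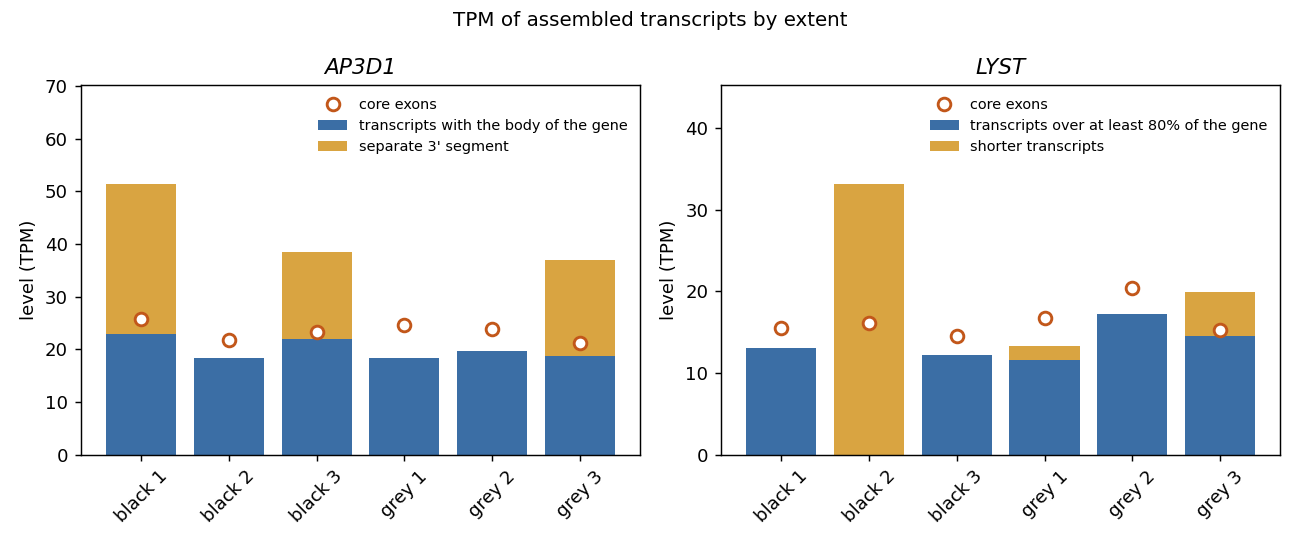
Level (TPM, y axis) of AP3D1 and LYST in each of the 6 libraries, split by the extent of the assembled transcripts, with open circles for the depth over core exons. The separate 3′ segment of AP3D1 (upper part of the bars) adds 28.5, 16.5 and 18.3 TPM in 3 libraries, and the LYST bar of black replicate 2 consists of shorter transcripts only.

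BLOC1S6 (pallidin) and DTNBP1 (dysbindin) belong to BLOC-1, which forms the tubules that carry cargo such as TYRP1 out of endosomes. BLOC1S6 (chromosome 8, 200274796 to 200292682, plus strand) had 14.6, 11.3 and 18.2 TPM in black skin, against 14.7, 8.98 and 15.2 TPM in grey skin. Replicate 2 was the lowest library within each colour, and the log2 difference was 0.18 (95% interval -0.46 to 0.81). In grey replicate 2 the assembled transcripts stopped at 200290833, short of the end at 200292674 to 200292679 reached in the other libraries, and only 305 reads lay in them. A pseudogene, LOC118857332 (chromosome 7, 273996259 to 273996788), carries the name BLOC1S6 in the deposited files and held 3.32, 3.52 and 2.91 TPM in black skin, against 4.23, 5.80 and 3.63 TPM in grey skin. Reads of the gene and of this copy may be shared, so the level of BLOC1S6 is uncertain.

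DTNBP1 (chromosome 1, 183257873 to 183457535, minus strand) was the most abundant of the 10. It had 32.8, 41.8 and 32.5 TPM in black skin, against 33.9, 39.2 and 23.1 TPM in grey skin. In summed TPM replicate 2 was the highest library within each colour, opposite to BLOC1S6, and grey replicate 3 was lowest. The log2 difference in summed TPM was 0.17 (95% interval -0.38 to 0.73). Over core exons DTNBP1 stood at 38.3, 50.4 and 41.2 in black skin, against 47.1, 46.2 and 28.0 in grey skin. On that measure grey replicate 1, and not grey replicate 2, was the highest grey library. One transcript of 10 exons held 92.6% to 96.2% of the DTNBP1 TPM in black skin and 94.1% to 100% in grey skin. The ratio of DTNBP1 to BLOC1S6 was 2.25, 3.70 and 1.79 in black skin, against 2.31, 4.36 and 1.52 in grey skin, so the pair did not keep a fixed ratio between possums of 1 colour.

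LYST encodes a very large protein with a BEACH domain that controls the size of lysosome-related organelles. LYST (chromosome 4, 146404998 to 146577075, plus strand) had 13.0, 33.2 and 12.2 TPM in black skin, against 13.3, 17.2 and 19.9 TPM in grey skin. Black replicate 2 stood far above the other 5. In that library LYST was assembled as 6 transcripts, none of which covered more than 54.1% of the gene. The other 5 libraries each held transcripts over at least 87.8% of it, and in 4 of these over the whole span. Over core exons LYST was 15.6, 16.1 and 14.5 in black skin, against 16.8, 20.4 and 15.3 in grey skin, and black replicate 2 was among the others. The log2 difference was 0.07 in summed TPM (95% interval -0.86 to 1.00) and -0.16 over core exons (95% interval -0.55 to 0.22), neither of which passed the test.

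Coverage rose along LYST, where the last of 3 equal parts of the core exons had 3.93 to 4.29 times the coverage of the first in black and 3.59 to 4.70 times in grey skin. The median of this ratio over libraries was 4.15 for LYST, against 1.16 for HPS4, 1.36 for DTNBP1, 1.45 for HPS1, 1.76 for AP3B1, 1.93 for HPS5, 2.08 for HPS3, 2.23 for BLOC1S6 and 2.55 for AP3D1. The 2 genes with the highest ratios, LYST and AP3D1, were also those whose summed TPM moved most with the assembled pieces. Whether the gradient and the pieces are linked was not tested. The LYST pieces of black replicate 2 show this gradient, with 4.89 TPM for the main 14-exon piece at the 5′ end and 16.5 TPM for the main 34-exon piece at the 3′ end.

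In all 6 libraries LYST transcripts began upstream of the RefSeq start. The first exon ended at 146365585 in every library and was joined to the exon at 146404998 by the same intron of 39412 nt. Its assembled length was 86, 71 and 68 nt in black skin, against 58, 37 and 130 nt in grey skin, and its coverage was 3.27, 6.70 and 1.00 in black skin, against 2.91, 1.73 and 5.56 in grey skin. The next exon, of which the assembled part ran to 146405092, was covered 7.04 to 15.2 times. The upstream exon was thus found in both colours at low coverage. Transcripts that start with it held all LYST TPM in black replicates 1 and 3 and grey replicate 2. The RefSeq table gives gene spans without exons, so whether the exon is part of another annotated form was not examined.

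LYST was also spliced with and without an exon of 162 nt (146507646 to 146507807), 2 forms found in all 6 libraries. Transcripts with this exon held 67.7%, 14.2% and 40.0% of the TPM of both forms in black skin, against 12.4%, 30.8% and 19.0% in grey skin. Transcripts spliced to position 146507175 instead of 146507646 count in neither form. They held 2.55 TPM in black replicate 1, 0.53 in black replicate 2 and 0.58 in grey replicate 3. The 2 highest shares were black and the lowest grey, but black replicate 2 lay below 2 of the grey libraries. AP3B1 had a comparable exon of 159 nt (438394024 to 438394182), which made up 88.9%, 95.5% and 89.8% of the TPM of both forms in black skin, against 90.1%, 91.2% and 100% in grey skin. This exon was in the main form of every library. For an HPS5 exon of 124 nt, the share among transcripts that show either form was 100%, 100% and 74.4% in black skin, against 100%, 96.7% and 89.0% in grey skin.

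HPS1 had a longer form of 1 exon, by 73 nt (76695770 to 76695842), which held 6.05%, 8.02% and 83.7% of the TPM of transcripts that show either form in black skin and was assembled in no grey library. In black replicate 3 it was part of the main transcript of 20 exons and 12.9 TPM, or 64.4% of all HPS1 TPM. These shares rest on StringTie's division of single-end reads between forms, the events were picked after their values had been seen, and no test was made of them.

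**Figure D3:**
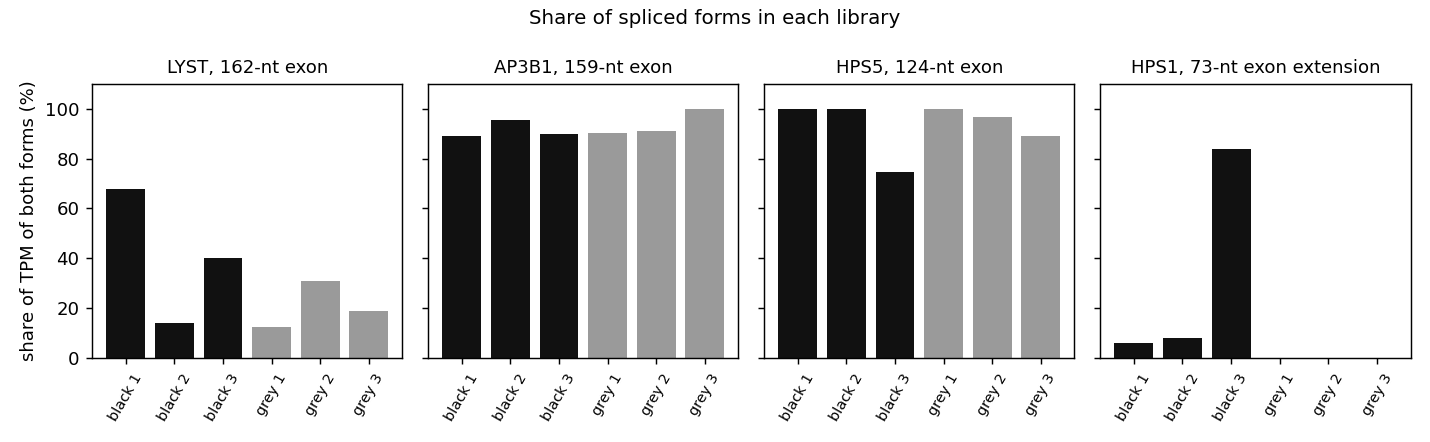
Share (percent, y axis) of transcripts with an alternatively used part in the TPM of all transcripts that show either form, for LYST, AP3B1, HPS5 and HPS1, in the 3 black (left, dark) and 3 grey (right, light) libraries. LYST ranges from 12.4% to 67.7%, AP3B1 stays above 88%, and the HPS1 extension reaches 83.7% in black replicate 3.

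**Figure D4:**
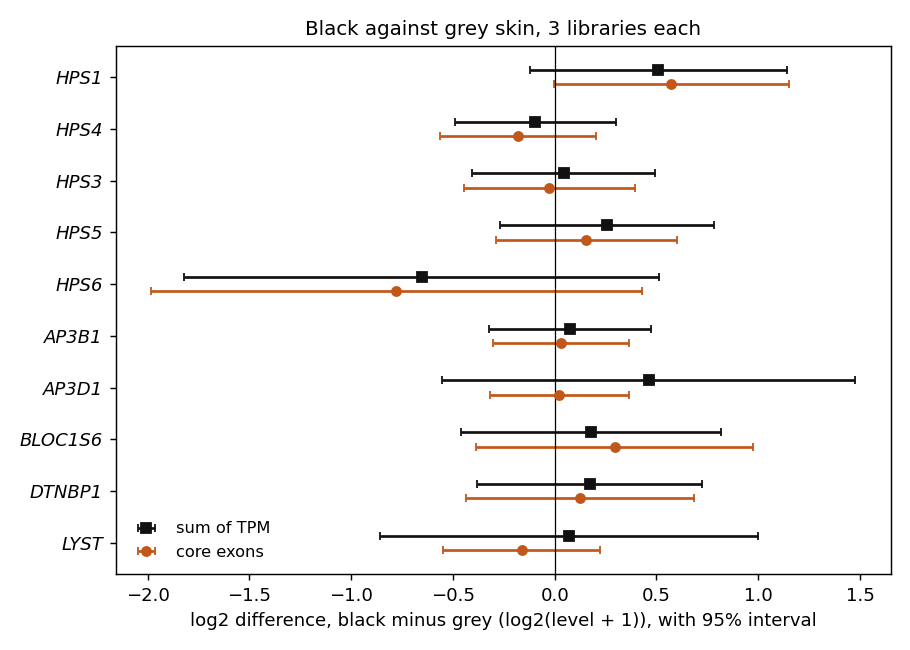
Log2 difference, black minus grey, on log2(level + 1) (x axis), of each of the 10 genes with its 95% interval from limma, 3 libraries against 3. Squares are summed TPM and circles core exons. Every interval includes 0, and that of AP3D1 is -0.32 to 0.36 over core exons, against -0.55 to 1.48 in summed TPM.

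The intervals set bounds on what these libraries could show. Over core exons, the interval of the log2 difference stayed within 0.60 of 0 on either side for HPS3, HPS4, HPS5, AP3B1, AP3D1 and LYST, and it reached 0.68 for DTNBP1, 0.97 for BLOC1S6, 1.15 for HPS1 and -1.98 for HPS6. The summed level of the 10 genes was 195, 187 and 194 TPM in black skin, against 157, 167 and 169 TPM in grey skin, without overlap. Without AP3D1 and LYST the summed TPM was 130.6, 135.8 and 143.4 in black skin, against 125.2, 129.6 and 112.5 in grey skin, also without overlap. Over core exons the sums of all 10 genes were 191, 194 and 199 in black skin, against 202, 185 and 166 in grey skin, and the groups overlapped. Of all TPM, 88.4%, 89.1% and 88.7% was assigned to genes in black skin, against 81.1%, 87.0% and 86.9% in grey skin. These shares did not overlap either, and their part in the summed TPM was not tested. No test was made of the sums, and no share over other sets of genes was taken.

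Spread between possums of 1 colour was then set beside that of melanocyte-restricted genes. The SD within colours of log2(TPM + 1) had a median of 0.33 over the 10 genes (range 0.09 for HPS4 to 0.65 for AP3D1), 0.71 over 11 melanocyte-restricted genes (range 0.15 for SOX10 to 1.28 for DCT) and 0.32 over all genes tested. Among the 10959 genes tested with a mean between those of HPS6 and DTNBP1 it was 0.34. As a coefficient of variation of TPM, the medians were 20.6% for the 10 genes, 62.1% for the melanocyte-restricted genes and 25.2% for all genes tested. None of the 10 reached the median of the melanocyte-restricted genes, and 7 of those 11 varied more than each of the 10. These are descriptions over genes that share libraries, and no test was made.

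Many of the melanocyte-restricted genes were high in the same libraries. DCT, an enzyme of melanin synthesis, had 18.4, 15.0 and 61.7 TPM in black skin, against 9.77, 65.5 and 11.6 TPM in grey skin. PMEL, the fibril protein of the melanosome, had 55.9, 24.3 and 78.7 TPM in black skin, against 18.3, 75.9 and 22.8 TPM in grey skin. Both were high in black replicate 3 and grey replicate 2. Of the 11 genes, 6 were highest in grey replicate 2 and 3 in black replicate 3, and 6 were lowest in grey replicate 1. OCA2 was highest in grey replicate 1, at 5.03 TPM, and SOX10 in grey replicate 3, at 10.7 TPM. TYRP1, PMEL, GPR143, TYR, SLC45A2, OCA2, MLANA, SLC24A5 and TRPM1 had SDs between 0.98 and 0.48. SOX10, a transcription factor of melanocytes and of Schwann cells, was the exception at 0.15. Between colours, 0 of the 11 passed an adjusted p of 0.05, and 2 had an unadjusted limma p under 0.05, against 2.32% of all genes tested. TRPM1 was the higher in black skin (log2 difference 1.27), at 2.51, 2.15 and 4.02 TPM, against 0, 1.17 and 0.81 TPM in grey skin. SOX10 was the lower (-0.52), at 5.91, 7.80 and 6.11 TPM, against 9.31, 9.67 and 10.7 TPM. No transcript was assigned to MC1R.

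The 10 genes were then set beside that order. In the 2 libraries with most melanocyte-restricted TPM (277 in black replicate 3 and 285 in grey replicate 2), their summed level over core exons was 199 in black replicate 3, against 185 in grey replicate 2, within the 166 to 202 of the other 4 libraries. In summed TPM 4 of the 10 were highest in black replicate 3 and 1 was lowest there, whereas 0 were highest and 2 lowest in grey replicate 2. Over core exons 2 were highest in black replicate 3 and 1 in grey replicate 2. Over core exons the median SD within colours of the 10 genes was 0.18, below the 0.28 of all genes on that measure, and that of 10 melanocyte-restricted genes with core exons was 0.79. The SD of AP3D1 was 0.11 on this measure, against 0.65 in summed TPM, and that of LYST was 0.15, against 0.58. The SD was smaller over core exons for 5 of the 10 genes, and larger for HPS3, HPS4, HPS6, DTNBP1 and BLOC1S6, the last at 0.40, against 0.36. HPS6, with few reads and 1 library at 0, had the highest SD of the 10 over core exons, at 0.74.

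**Figure D5:**
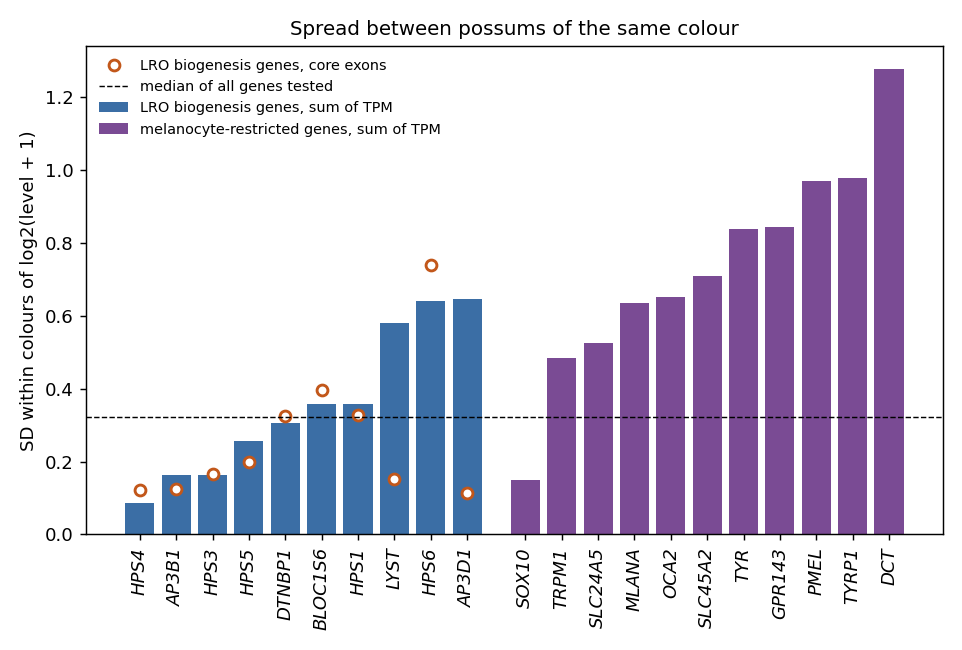
SD within colours of log2(level + 1) (y axis) for the 10 lysosome-related organelle biogenesis genes (left bars) and 11 melanocyte-restricted genes (right bars), each over 3 black and 3 grey libraries. Open circles give the 10 genes over core exons, and the dashed line is the median of all genes tested, 0.32. AP3D1 and LYST lie above the line in summed TPM and below it over core exons.

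Other genes of the pathway were counted from lists made by function. Of the partner subunits of BLOC-1 and AP-3, 0 of 9 tested passed an adjusted p of 0.05 in either direction (median log2 difference 0.14). BLOC1S1, shared by BLOC-1 and a complex of lysosome positioning, had the smallest p of the list, with 32.9, 31.4 and 30.2 TPM in black skin, against 48.9, 36.0 and 60.1 TPM in grey skin. Its groups did not overlap, as those of 6.37% of all genes tested did not. The log2 difference of BLOC1S1 was -0.57 (SE 0.21, adjusted p = 1.00, limma). BLOC1S3, another BLOC-1 subunit, came next with a log2 difference of 0.29 (SE 0.19, adjusted p = 1.00, limma).

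Of the Rab, SNARE, HOPS and AP-1 partners, 0 of 23 tested passed in either direction (median 0.10). STX7, a SNARE of late endosomes, had the smallest p, with 71.6, 57.9 and 71.1 TPM in black skin, against 51.4, 50.8 and 56.0 TPM in grey skin. Its groups did not overlap, against 6.37% of all genes tested, and its log2 difference was 0.33 (SE 0.15, adjusted p = 1.00, limma). AP1S2, a small subunit of the adaptor AP-1, differed by 0.26 (SE 0.16). RAB38, named here as a target of BLOC-3 and not for its values, had 169, 121 and 125 TPM in black skin, against 71.0, 136 and 164 TPM in grey skin. RAB32, named for the same reason, had 9.24, 3.83 and 13.5 TPM in black skin, against 7.21, 9.78 and 11.1 TPM in grey skin. Both overlapped between colours.

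Among the BEACH domain relatives of LYST, 0 of 7 passed (median 0.04). WDFY4, which is expressed in dendritic cells, had the smallest p, with 4.93, 3.59 and 13.4 TPM in black skin, against 5.11, 2.66 and 2.97 TPM in grey skin. It was high in black replicate 3, the library in which 8 of 8 macrophage and dendritic cell markers summed to 1336 TPM, against 457 and 650 TPM in the other black and 337 to 625 TPM in the grey libraries. Their part in the WDFY4 level was not tested. NSMAF came next, with a log2 difference of 0.23 (SE 0.20).

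Of the lysosomal proteins and enzymes, 0 of 16 passed (median 0.02). SCARB2, a lysosomal membrane protein that carries glucocerebrosidase, had the smallest p, with 136, 122 and 105 TPM in black skin, against 86.3, 86.6 and 108 TPM in grey skin. The protease CTSB followed, with 589, 543 and 660 TPM in black skin, against 478, 461 and 515 TPM in grey skin. It did not overlap between colours, against 6.37% of all genes tested. The log2 differences of SCARB2 and CTSB were 0.37 (SE 0.17) and 0.30 (SE 0.15), with adjusted p = 1.00 each (limma). The median SD within colours of this list was 0.19, against 0.25 for the Rab, SNARE, HOPS and AP-1 partners, 0.26 for the BLOC-1 and AP-3 partners and 0.40 for the BEACH domain relatives.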

How the data were processed

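Single-end reads of 120 nt were trimmed (Trim Galore 0.6.10) and aligned (HISAT2 2.2.1) to mTriVul1.pri by the authors, who removed amplicon reads carrying a shared index and assembled each library separately with StringTie (version 2.2.0). The deposited files hold coverage, FPKM and TPM per assembled transcript, and no read counts, which is why limma was fitted to log values.

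Depth per library (aligned bases) was the median ratio of coverage to FPKM, and reads were coverage × length / 120. RefSeq spans came without strand or exons. Both were inferred from assembled transcripts (joint overlap of at least 0.5, or 80% inside), a deviation from plan. Each transcript went to the gene sharing most exon bases on its strand, else to its reference name. Of 274079 transcripts, 232556 were assigned.

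Summed TPM was compared with limma 3.58.1 (R 4.3.3, lmFit, eBayes with trend) on log2(TPM + 1) over genes averaging 1 TPM or more (two-sided, Benjamini-Hochberg, threshold 0.05). Differences on this scale understate those of low genes. Named genes were the 10 genes, all melanocyte-restricted genes and, of other lists, genes past the threshold or else the 2 of smallest p. The genes and lists were chosen with earlier results of these data known. Core exons need at least 5 libraries and were added after seeing the data, as were the splice events. The fit was tested on simulated data, of which no outcome is reported here. Alternatives were other pseudocounts, filters, scalings, weights, no trend, a replicate block, multi-exon transcripts, reference names and leaving out each library. Alleles were not analysed here.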

Additional observations from a re-analysis of the deposited data

How the results depend on the processing

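Under the alternatives that gave a value, 0 of the 10 genes and 0 genes of the partner lists were called, and the lowest adjusted p of any of the 10 was 0.99 (limma). The number of genes called over all genes was 3, and it was 1 for genes averaging 5 TPM or more, 0 with a replicate block, 0 with reference gene names only and 0 to 3 when leaving out each library. Same-numbered libraries did not deviate together (correlations of -0.03, 0.03 and -0.05), so the numbers were not taken as pairs, and the block changed no call of the 10 genes. LYST reversed to -0.16 over core exons, and leaving out libraries moved it between -0.37 (without black replicate 2) and 0.32. HPS3 reversed to -0.027 over core exons and to -0.018 without muscle markers and the 50 most abundant genes of each library, and ranged from -0.053 to 0.10 when leaving out libraries. The ranges were -0.013 to 0.17 for AP3B1, -0.046 to 0.34 for BLOC1S6 and -0.039 to 0.33 for DTNBP1. HPS1 stayed above 0, from 0.23 to 0.70, AP3D1 from 0.15 to 0.87, and HPS6 below 0, from -0.93 to -0.19 (-1.63 with a pseudocount of 0.1). AP3D1 was only 0.023 over core exons, and 0.29 with multi-exon transcripts only. When leaving out libraries, the median difference of the 10 genes ranged from 0.08 to 0.17, their median SD from 0.21 to 0.36 and that of the melanocyte-restricted genes from 0.52 to 0.80. Over all alternatives these medians ran from 0.027 (core exons) to 0.17, from 0.18 (core exons) to 0.36 and from 0.49 (pseudocount 5) to 0.99 (pseudocount 0.1). No value could be had for the 10 genes by reference name. Of their names only BLOC1S6 occurred, and in all 6 libraries a transcript of the pseudogene LOC118857332 carried it. SDs were not taken under library weights, nor without a trend, which leaves them as they are. Low depth limits HPS6 most. StringTie assembled each library apart, and the summed TPM of AP3D1 and LYST was highest in libraries where they were assembled in separate pieces.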
